A study of Mus musculus with 8 samples.

Results

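A set of 38 genes that carry glucose into the cell and through glycolysis, lactate handling, gluconeogenesis, the glycerol phosphate shuttle and the pentose phosphate pathway was examined in brown fat and muscle of mice placed in the cold. Members were found by matching their symbols or synonyms to the gene annotation of the array's probes, a rule that uses no measured value. Of the 38 members, 32 had a named probe and 29 were tested, among 9963 genes tested in all. Testing required that, in 1 or more groups, both arrays showed a detection p below 0.05. Gpi1, Pfkfb1, Pgam1, Eno1, G6pdx and Pgd had no named probe and are not analysed here. Hk1, Aldoc and Slc16a1 had a probe but did not meet this detection limit.

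The series holds 8 Illumina bead arrays, 2 in each of 4 groups. These were brown adipose tissue (brown fat) in the cold, brown fat at room temperature, quadriceps muscle in the cold and quadriceps muscle at room temperature. All mice were of the C57BL/6J strain on laboratory chow. The labels name no transgene or deletion in any group, and no age or sex is stated in the material used. Cold meant 4 °C for 4 h, after a night with free access to food and water, and the mice had neither food nor bedding while in the cold. How the room temperature mice were fed and housed on that day is not stated, so the absence of food and the cold cannot be told apart. The series title names the transcription factor Zbtb16 in brown adipocytes. The arrays address which transcripts differ with cold in each tissue and between the tissues. The labels do not say that replicates came from separate mice, so the p-values reflect differences among these samples only, and that spread could be technical. For muscle in the cold, the description field numbers the replicates the other way round from the titles, and the titles' numbers are used here. These are whole tissue samples, in which fewer cells of a type and less RNA per cell cannot be told apart. Wherever a pair of values is given for a group, replicate 1 precedes replicate 2.

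Glucose enters cells through transporters of the Slc2a family and is trapped by hexokinase as a phosphate. Phosphofructokinase then commits the sugar to glycolysis, and the bifunctional Pfkfb enzymes set the level of the sugar bisphosphate that activates it. The lower enzymes yield pyruvate, which lactate dehydrogenase converts to lactate and back. The pentose phosphate pathway branches off above phosphofructokinase and supplies NADPH and pentoses. Several steps have isoforms that differ between tissues: Pfkm, Pgam2 and Eno3 are the forms of mature muscle, whereas Pfkl is the form first described in liver. Brown adipocytes burn fatty acids and glucose to make heat, and their glucose uptake is known to increase with sympathetic stimulation.

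The labels were checked against marker genes of the tissues before the members were read. Ucp1, the uncoupling protein, and Cidea, a lipid droplet protein, were bright on all 4 brown fat arrays, with log2 intensities of at least 14.41, while the brown fat regulator Prdm16 was not above background on any of the 8 arrays. All 17 muscle fibre markers with a probe, of 19 in the list, were above background on every muscle array. On the brown fat arrays 8 and 16 of these 17 were above background in the cold and 16 and 16 at room temperature. The median log2 intensity of this list was 5.73 and 11.35 in brown fat in the cold, 10.85 and 11.30 in brown fat at room temperature, 14.48 and 14.54 in muscle in the cold, and 14.57 and 14.54 in muscle at room temperature. Its summed raw signal was 1875 and 98100 in brown fat in the cold, against 83670 and 87495 in brown fat at room temperature. Muscle transcripts were therefore present on 3 of the 4 brown fat arrays and near background on replicate 1 in the cold, where Ckm, the muscle creatine kinase, and 8 other markers were not above background.

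Muscle replicate 2 in the cold carried the converse signal. Of the 9 brown adipocyte markers with a probe, of 10 in the list, 6 and 8 were above background in muscle in the cold, against 5 and 6 in muscle at room temperature. The summed raw signal of this list was 37853 and 69405 in muscle in the cold, 32273 and 35837 in muscle at room temperature, and 90768 to 97705 over the brown fat arrays. Most of that sum in muscle at room temperature came from Cox8b (26108 and 28373) and Cpt1b (5440 and 6727), which were bright in both tissues. Ucp1 reached a log2 intensity of 9.16 and 14.45 in muscle in the cold, against 6.18 and 5.93 in muscle at room temperature. Cidea read 7.14 and 13.10, against 5.81 and 5.89, so both were raised on replicate 1 as well, by less. Elovl3, Otop1 and Ebf2 were higher on replicate 2 than on replicate 1 in the cold. Zic1 (5.89 and 5.83), Cpt1b and Cox8b were not. The median of 8 general adipocyte markers read 7.40 and 9.43 in muscle in the cold, against 7.01 and 7.43 in muscle at room temperature. The other lists are given by their summed raw signals. The 5 macrophage markers summed to 1010 and 1254 in brown fat in the cold, against 1833 and 1628 in brown fat at room temperature, and the 5 endothelial markers to 4303 and 4348 in the cold, against 7413 and 5829 at room temperature. Of the endothelial markers, Cdh5, Tek and Emcn were lower in cold brown fat, whereas Pecam1 (mean log2 intensity 10.70 in the cold, against 10.37 at room temperature) and Kdr (5.89, against 5.77) were not. The 3 Schwann cell markers summed to 3315.5 and 3564 in brown fat in the cold, against 2890 and 2177 in brown fat at room temperature, and the 3 red cell markers to 18569 and 15068 in muscle in the cold, against 10334 and 10664 in muscle at room temperature. The part of these cell types in the results was not tested. Of the members higher in brown fat, Pfkl, Pfkp, Gpd2, Pck1, Tkt and Taldo1 read higher on muscle replicate 2 in the cold than on replicate 1, but Ldhb read lower. Of those higher in muscle, Pgam2, Eno3, Pfkm and Pfkfb4 were lowest on brown fat replicate 1 in the cold. Slc2a3 (6.77), Pfkfb2 (7.71) and Tpi1 (13.48) were lowest on that array too, by smaller margins. Slc2a1, Pgk1 and Ldha, called lower in brown fat at room temperature only, were not.

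**Figure D1:**
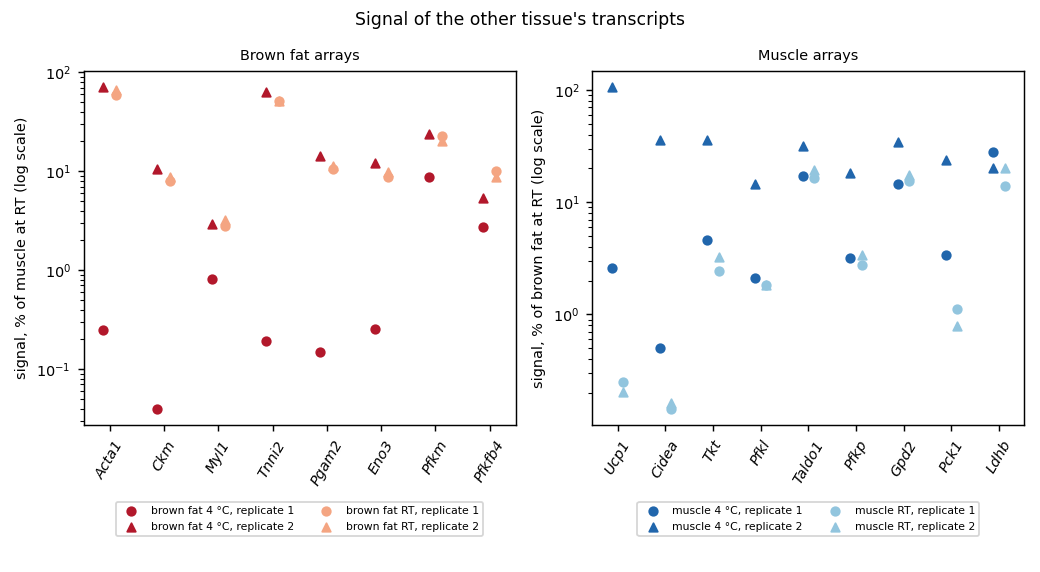
Background-subtracted signal of muscle transcripts on the brown fat arrays, in percent of their mean in muscle at room temperature (left), and of brown fat transcripts on the muscle arrays, in percent of their mean in brown fat at room temperature (right); each point is 1 array and both axes are logarithmic. Pgam2 and Eno3 stood at 0.149% and 0.254% on brown fat replicate 1 in the cold, near background, and at 14.4% and 12.1% on replicate 2; Tkt stood at 4.64% and 35.9% on the muscle arrays in the cold.

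Between the tissues many members differed, the phosphofructokinase subunits in opposite directions, and cold moved few of the members. In brown fat, 3 of the 29 tested members rose in the cold (Slc2a1, Hk2 and Pgk1) and 1 fell (Pfkfb4), at an adjusted p under 0.05 in limma with Benjamini-Hochberg adjustment over all 9963 genes. Of all genes tested, 16.6% were called in this comparison, 8.38% as higher and 8.24% as lower. Against these shares stood 10.3% of the members higher and 3.45% lower, and the members' median log2 fold change was 0.06, against 0.015 for all genes. The members as a whole were thus called about as often as other genes. In muscle 0 members were called, 3 had an unadjusted p under 0.05 (Pck1, Tkt and Eno2), and 4.21% of all genes were called (1.83% higher and 2.38% lower). The difference between the cold effects of brown fat and muscle was called for 0 members and for 4.22% of all genes (2.08% higher and 2.14% lower). For this difference 6 members had an unadjusted p under 0.05. The share of all genes at the unadjusted limit was not taken. The unadjusted counts can therefore not be set against the called shares.

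Brown fat against muscle gave many more calls, for members and for all genes alike. In the cold 10 members were higher in brown fat and 7 lower, and 64% of all genes were called (34.1% higher and 29.9% lower). At room temperature 7 were higher and 8 lower, and 66.2% of all genes were called (32.8% higher and 33.4% lower). The groups did not overlap for 21 of the 29 members and 82.7% of all genes in the cold, and for 26 members and 85.2% of all genes at room temperature. The share of members called was not above that of all genes in either comparison. The 5 comparisons share arrays, so their results are not independent of each other.

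**Figure D2:**
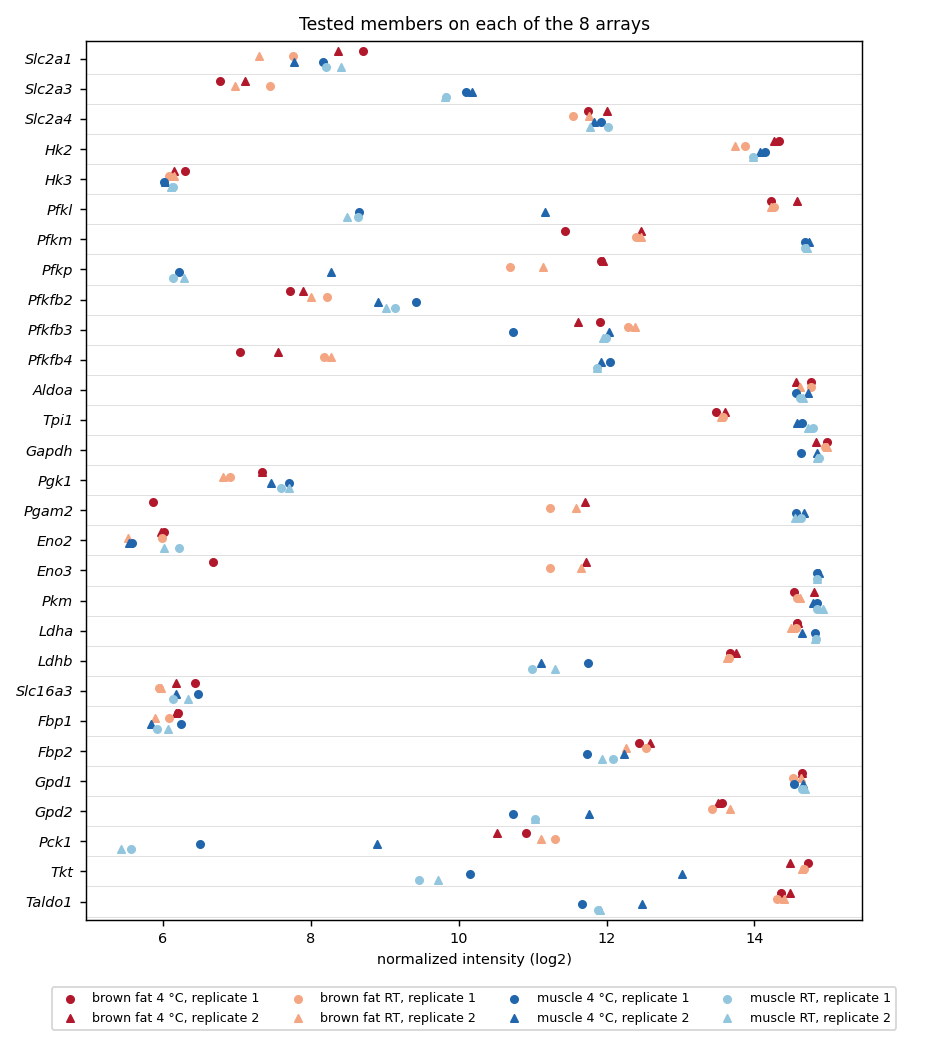
Normalized log2 intensity of the 29 tested members on each of the 8 arrays; colours mark tissue and temperature, and circles and triangles mark replicates 1 and 2. Pgam2 and Eno3 on brown fat replicate 1 in the cold, and Pfkl, Tkt and Pck1 on muscle replicate 2 in the cold, lie far from the other replicate; levels are not comparable between genes, since each row is a different probe.

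The promoters of the 3 members that rose in cold brown fat are shown because all 3 hold the letters ACGTG, the core that hypoxia-inducible factors bind and that the E-box CACGTG also contains. The windows run from 250 bases before to 50 bases after the annotated start, written 5′ to 3′ on the gene's strand, from RefSeq on GRCm38.p6, with each match in capitals (CACGT is the same motif on the other strand). They lie at chr4:119108495-119108794 on the plus strand (Slc2a1), chr6:82774405-82774704 on the minus strand (Hk2) and chrX:106186850-106187149 on the plus strand (Pgk1).
Slc2a1: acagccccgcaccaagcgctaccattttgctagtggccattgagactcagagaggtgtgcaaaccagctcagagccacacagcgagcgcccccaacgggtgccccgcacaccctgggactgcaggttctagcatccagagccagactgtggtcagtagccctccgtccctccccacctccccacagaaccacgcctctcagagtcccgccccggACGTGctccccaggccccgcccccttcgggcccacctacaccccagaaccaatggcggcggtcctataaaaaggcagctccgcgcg
Hk2: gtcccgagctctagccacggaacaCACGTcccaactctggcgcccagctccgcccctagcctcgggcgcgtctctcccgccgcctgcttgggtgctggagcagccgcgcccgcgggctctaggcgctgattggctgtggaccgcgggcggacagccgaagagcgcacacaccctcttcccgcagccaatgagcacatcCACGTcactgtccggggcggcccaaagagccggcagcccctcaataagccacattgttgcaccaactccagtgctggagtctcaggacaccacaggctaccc
Pgk1: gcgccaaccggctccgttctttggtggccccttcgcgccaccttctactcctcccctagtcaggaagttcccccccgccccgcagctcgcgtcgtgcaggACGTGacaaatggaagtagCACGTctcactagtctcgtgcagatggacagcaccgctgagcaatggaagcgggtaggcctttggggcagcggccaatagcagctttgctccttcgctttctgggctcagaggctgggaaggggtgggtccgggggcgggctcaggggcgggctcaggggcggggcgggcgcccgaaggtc
The first base of a match lay 36 bases before the start of Slc2a1, 226 and 52 bases before that of Hk2, and 150 and 131 bases before that of Pgk1. On either strand, 19.6% of all 32851 promoter windows held it. Counted by gene, 21.8% of 27025 genes held it in any window, as did 19 of the 35 members with a window (54.3%). Among these members were Aldoa, Gapdh, Pkm and Ldha, whose transcripts were not called with cold. The motif was chosen with results of these data known, and a match describes letters in a window and not a site in use.

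Among the glucose transporters, Slc2a1 rose in cold brown fat. It encodes GLUT1, which carries basal glucose uptake in many cell types. Its log2 intensity was 8.71 and 8.37 in brown fat in the cold, against 7.76 and 7.30 in brown fat at room temperature, and 8.16 and 7.77 in muscle in the cold, against 8.20 and 8.41 in muscle at room temperature. The brown fat groups did not overlap, and in muscle the cold arrays lay below those at room temperature. The log2 fold change was 1.01 in brown fat (SE 0.21, interval 0.51 to 1.51, 2.01-fold, adjusted p = 0.0209) and -0.34 in muscle (interval -0.84 to 0.16, adjusted p = 0.413). These effects differed by 1.35 (interval 0.65 to 2.06), which missed the threshold in limma (adjusted p = 0.0556). Slc2a1 was higher in brown fat than in muscle in the cold by 0.58 (SE 0.21, adjusted p = 0.0461) and lower in brown fat at room temperature by -0.78 (SE 0.21, adjusted p = 0.0142). The rise in brown fat was called in 19 of 22 alternatives (adjusted p from 0.0129 to 0.111). It was lost without brown fat replicate 1 in the cold (0.84, adjusted p = 0.0964) and without brown fat replicate 2 at room temperature (0.78, adjusted p = 0.111). The tissue difference in the cold was lost in 12 of 22 alternatives (adjusted p up to 0.5), and that at room temperature in 2.

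The other transporters did not pass the test for cold in either tissue. Slc2a3 (GLUT3), a high-affinity transporter best known from neurons, read 6.77 and 7.11 in brown fat in the cold, 7.45 and 6.97 in brown fat at room temperature, 10.09 and 10.18 in muscle in the cold and 9.82 and 9.82 in muscle at room temperature. Brown fat was lower by -3.20 in the cold (SE 0.18, adjusted p = 1.5e-05) and by -2.61 at room temperature (adjusted p = 2.84e-05), and all 22 alternatives kept both calls. Slc2a4 (GLUT4), the insulin-responsive transporter of fat and muscle, lay between 11.55 and 12.02 on all 8 arrays. Its cold effect was 0.22 in brown fat (interval -0.11 to 0.56) and -0.02 in muscle (interval -0.36 to 0.31), so a rise of the size fitted for Slc2a1 lies outside both intervals.

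Hexokinase Hk2, the isoform of insulin-sensitive tissues, rose in cold brown fat by a small amount. It read 14.33 and 14.27 in brown fat in the cold, 13.87 and 13.73 in brown fat at room temperature, 14.14 and 14.07 in muscle in the cold, and 13.97 and 13.97 in muscle at room temperature. The cold arrays lay above those at room temperature in both tissues. The log2 fold change was 0.49 in brown fat (SE 0.10, 1.41-fold, adjusted p = 0.0182) and 0.13 in muscle (interval -0.10 to 0.36, adjusted p = 0.517), and the effects differed by 0.36 (adjusted p = 0.172). The brown fat call was kept in 18 of 22 alternatives (adjusted p from 0.0102 to 0.096) and was lost without brown fat replicate 1 in the cold (0.46, adjusted p = 0.078) or brown fat replicate 2 at room temperature (0.42, adjusted p = 0.096). Hk3, the form of white blood cells, stayed between 6.02 and 6.29 on all arrays and passed no comparison. Hk1, the widely expressed form, was above background on 1 of the 8 arrays and was not tested.

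Phosphofructokinase, the committing step of glycolysis, showed the clearest isoform split between the tissues. Pfkl, the liver-type subunit, read 14.22 and 14.58 in brown fat in the cold, 14.26 and 14.22 in brown fat at room temperature, 8.65 and 11.17 in muscle in the cold, and 8.64 and 8.49 in muscle at room temperature. Pfkp, the platelet-type subunit, read 11.92 and 11.95, 10.70 and 11.14, 6.21 and 8.27, and 6.14 and 6.28 in the same groups. Pfkm, the muscle-type subunit, read 11.44 and 12.47, 12.40 and 12.46, 14.68 and 14.74, and 14.68 and 14.71. The tissues did not overlap for any of the 3 subunits. In brown fat Pfkl was higher than in muscle by 4.49 in the cold (SE 0.68, adjusted p = 0.000965) and 5.68 at room temperature (adjusted p = 0.000287). Pfkp was higher by 4.70 in the cold (SE 0.57, adjusted p = 0.000325) and 4.71 at room temperature (adjusted p = 0.000291). Pfkm was lower by -2.76 in the cold (SE 0.29, adjusted p = 0.00017) and -2.26 at room temperature (adjusted p = 0.000387). Without muscle replicate 2 in the cold the differences in the cold were 5.75 for Pfkl and 5.72 for Pfkp, and without replicate 1 they were 3.24 and 3.67. At room temperature a further probe of Pfkm gave -5.04 and passed. A further probe of Pfkp, not above background in muscle at room temperature, was at least 11.7-fold higher in brown fat and passed.

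None of the 3 subunits passed the test for cold. In brown fat Pfkp was higher in the cold by 1.01 (SE 0.57, adjusted p = 0.27), with groups that did not overlap, and its further probe gave 0.30. That effect was called without muscle replicate 1 or 2 in the cold (1.01, adjusted p = 0.00982 without replicate 2), with values from 0.66 to 1.26 over 21 alternatives (adjusted p from 0.00982 to 0.563). In muscle the fold changes of Pfkl (1.34, SE 0.68, adjusted p = 0.322) and Pfkp (1.03, adjusted p = 0.361) came from replicate 2 in the cold, where the signal of Ucp1 was 107% and that of Cidea 35.8% of the brown fat mean at room temperature. There Pfkl stood at 14.6% and Pfkp at 18.2% of their brown fat means, against 2.11% and 3.17% on replicate 1. Without that array the muscle cold effect was 0.09 for Pfkl and 0.00 for Pfkp, and without replicate 1 it was 2.60 and 2.06 and was called for both (adjusted p = 0.000525 and 0.00207). Pfkm was low on brown fat replicate 1 in the cold, the array with the least muscle marker signal, at 8.71% of its muscle mean at room temperature, against 20.1% to 23.7% on the other brown fat arrays. How far other cell types contribute to these tissue differences was not tested.

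The Pfkfb enzymes, which make and break down the activator of phosphofructokinase, included the member that fell in cold brown fat. Pfkfb4 read 7.04 and 7.55 in brown fat in the cold, 8.18 and 8.27 in brown fat at room temperature, 12.05 and 11.93 in muscle in the cold, and 11.86 and 11.88 in muscle at room temperature. Cold arrays lay below those at room temperature in brown fat and above them in muscle. The log2 fold change was -0.93 in brown fat (SE 0.17, interval -1.32 to -0.53, adjusted p = 0.0134) and 0.12 in muscle (interval -0.28 to 0.52, adjusted p = 0.752). The effects differed by -1.05 (interval -1.61 to -0.49, adjusted p = 0.0581), just outside the threshold. The brown fat call was kept in 19 of 22 alternatives (adjusted p from 0.00277 to 0.0834) and was lost when either room temperature array of brown fat was left out and with the mean of both probes. Pfkfb4 stood at 2.76% and 5.31% of its mean in muscle at room temperature on the brown fat arrays in the cold, against 9.99% and 8.77% on those at room temperature. Replicate 1 in the cold is the array with the least muscle marker signal (a sum of 1875, against 98100 on replicate 2), and without it the effect was -0.67 and still called (adjusted p = 0.0305). A dimmer probe was not above background on any brown fat array and gives no cold effect there. Relative to muscle, Pfkfb4 in brown fat was lower by -4.69 in the cold (SE 0.17, adjusted p = 3.03e-06) and -3.65 at room temperature (adjusted p = 6.57e-06), where the dimmer probe was at least 1.75-fold lower and also passed.

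Pfkfb2, the form first studied in heart, was lower in brown fat, relative to muscle, by -1.36 in the cold (SE 0.18, adjusted p = 0.000516) and -0.97 at room temperature (adjusted p = 0.00258). It averaged 7.80 ± 0.13 in brown fat in the cold, 8.11 ± 0.16 in brown fat at room temperature, 9.17 ± 0.36 in muscle in the cold, and 9.08 ± 0.09 in muscle at room temperature (SD, n = 2 each). Pfkfb3, an inducible form with high kinase activity, read 11.91 and 11.62 in brown fat in the cold, 12.29 and 12.38 in brown fat at room temperature, 10.74 and 12.03 in muscle in the cold, and 11.99 and 11.95 in muscle at room temperature. It was lower in the cold on both brown fat arrays and on muscle replicate 1, and passed in neither tissue (-0.57 and adjusted p = 0.33 in brown fat, adjusted p = 0.418 in muscle). Muscle replicate 2 in the cold had the most brown fat marker signal of the muscle arrays. Without it the muscle effect of Pfkfb3 was -1.23, and without muscle replicate 1 in the cold it was 0.06. The brown fat effect of -0.57 was called when either of these muscle arrays was left out (adjusted p = 0.0278 each). Over the alternatives its adjusted p in brown fat ran from 0.02 to 0.595. In muscle the range was 0.0107 to 0.876.

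**Figure D3:**
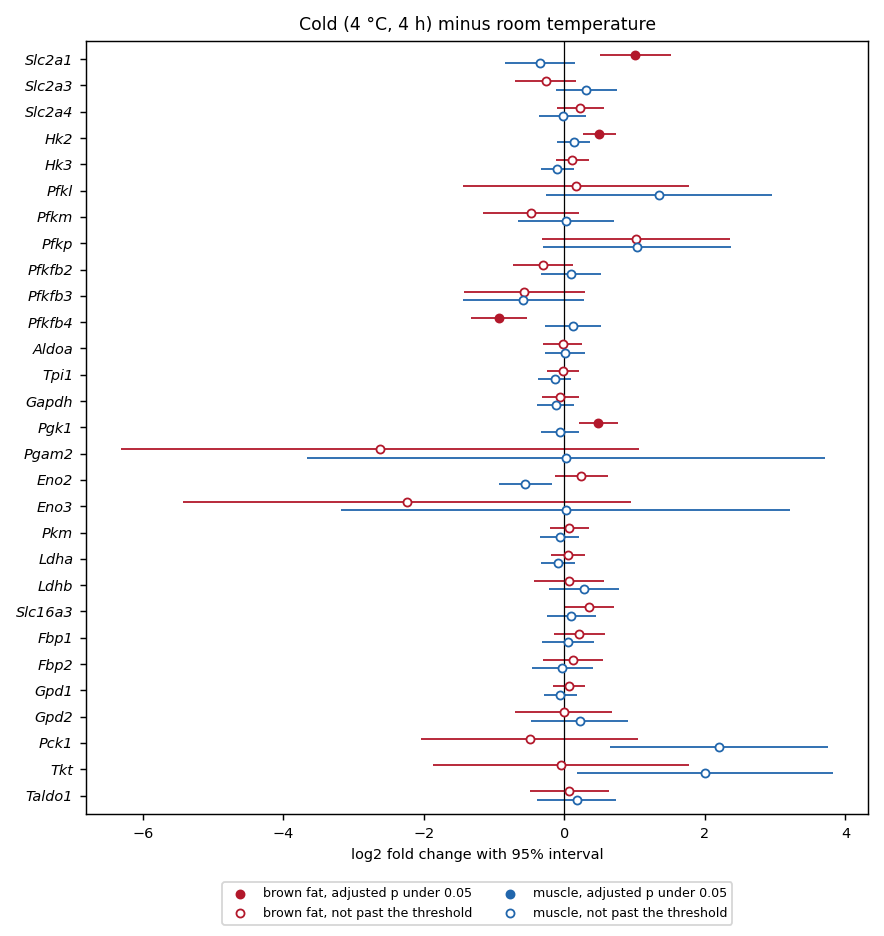
Log2 fold change of each tested member in the cold against room temperature, in brown fat (red) and muscle (blue), with 95% intervals from the limma fit; filled points passed an adjusted p of 0.05. The 4 filled points are Slc2a1 (1.01), Hk2 (0.49), Pgk1 (0.48) and Pfkfb4 (-0.93) in brown fat, and the widest intervals belong to Pgam2 and Eno3; the muscle values of Pck1 and Eno2 are fitted values with 1 group not above background, for which the text gives bounds.

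Of the enzymes of the lower glycolytic steps, Aldoa, Gapdh, Pkm and Tpi1 were bright on every array and did not pass the test for cold. Aldoa (aldolase), Gapdh (glyceraldehyde phosphate dehydrogenase) and Pkm (pyruvate kinase) lay between 14.53 and 14.98 on all 8 arrays. Together with Ldha and Gpd1 they were above 60% of the array's maximum signal on every array, and Gapdh reached 84% to 98.7%. Whether differences are compressed this near the top of the range was not tested. None of these 3 passed any of the 5 comparisons, and Gapdh, often used as a reference transcript, had a cold effect of -0.06 in brown fat (interval -0.33 to 0.20) and -0.12 in muscle (interval -0.39 to 0.14). Tpi1 (triose phosphate isomerase) was lower in brown fat, relative to muscle, by -1.07 in the cold (SE 0.10, adjusted p = 9.2e-05) and -1.19 at room temperature (adjusted p = 5.51e-05). It read 13.48 and 13.61 in brown fat in the cold, 13.58 and 13.55 in brown fat at room temperature, 14.65 and 14.58 in muscle in the cold, and 14.79 and 14.72 in muscle at room temperature.

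Pgk1 (phosphoglycerate kinase), which makes the first ATP of glycolysis, rose in cold brown fat in the normalized values. It read 7.34 and 7.34 in brown fat in the cold, 6.91 and 6.81 in brown fat at room temperature, 7.71 and 7.47 in muscle in the cold, and 7.60 and 7.71 in muscle at room temperature. Its probe was dim, at 0.544% to 0.832% of the array maximum. Raw signals of the brown fat groups overlapped, at 189.7 and 233 in the cold against 212.8 and 178.6 at room temperature. The groups separated only after background correction and normalization. The log2 fold change of Pgk1 was 0.48 in brown fat (SE 0.12, 1.40-fold, adjusted p = 0.0338). In muscle it was -0.07 (interval -0.34 to 0.21, adjusted p = 0.809), a difference of 0.55 (adjusted p = 0.107). The call was lost in 11 of 22 alternatives (adjusted p from 0.023 to 0.147), among them median scaling and the omission of any of the 4 brown fat arrays or of either muscle array at room temperature. Relative to muscle, Pgk1 in brown fat was lower at room temperature by -0.79 (SE 0.12, adjusted p = 0.000748), which all 22 alternatives kept, and by -0.25 in the cold, which did not pass (adjusted p = 0.102).

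Pgam2 (phosphoglycerate mutase) and Eno3 (enolase), the muscle isoforms, followed the muscle markers across the brown fat arrays. Their promoter windows, from RefSeq on GRCm38.p6, are shown with the E-box CAGCTG and, in Pgam2, a match to the MEF2 motif in capitals, letters that muscle transcription factors bind. They lie at chr11:5803747-5804046 on the minus strand (Pgam2) and chr11:70656926-70657225 on the plus strand (Eno3).
Pgam2: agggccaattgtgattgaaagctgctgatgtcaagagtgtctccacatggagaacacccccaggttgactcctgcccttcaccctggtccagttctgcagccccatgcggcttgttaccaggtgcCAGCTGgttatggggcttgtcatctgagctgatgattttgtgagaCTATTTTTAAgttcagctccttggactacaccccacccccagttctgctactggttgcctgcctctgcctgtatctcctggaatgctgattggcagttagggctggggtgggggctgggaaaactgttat
Eno3: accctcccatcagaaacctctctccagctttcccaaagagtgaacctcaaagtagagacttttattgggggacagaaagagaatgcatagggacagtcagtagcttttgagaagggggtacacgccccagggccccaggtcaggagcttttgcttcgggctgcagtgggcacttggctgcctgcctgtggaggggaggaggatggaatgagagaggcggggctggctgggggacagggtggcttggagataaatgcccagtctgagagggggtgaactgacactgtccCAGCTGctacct
The first base of CAGCTG lay 125 bases before the start of Pgam2, but 38 bases after that of Eno3. CAGCTG, which reads the same on both strands, was found in 16.3% of all windows. Counted by gene, 18.3% of all genes and 10 of 35 members held it in any window. The MEF2 motif was found in 3.19% of windows, 3.7% of genes and 2 members. Pgam2 read 5.86 and 11.71 in brown fat in the cold, 11.23 and 11.59 in brown fat at room temperature, 14.56 and 14.67 in muscle in the cold, and 14.63 and 14.55 in muscle at room temperature. Eno3 read 6.67 and 11.73, 11.23 and 11.66, 14.85 and 14.87, and 14.85 and 14.84 in the same groups. Brown fat replicate 1 in the cold was low for both and the other 3 brown fat arrays were alike. Set against the mean of muscle at room temperature, Pgam2 stood at 0.149% and 14.4% in brown fat in the cold and 10.6% and 11.3% in brown fat at room temperature. Ckm stood at 0.0393% and 10.6% in the cold and 7.89% and 8.78% at room temperature on the same arrays.

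The cold effect of Pgam2 in brown fat was -2.62 (SE 1.56, adjusted p = 0.299) and that of Eno3 -2.24 (SE 1.35, adjusted p = 0.304). Neither passed, and both turn with a single array. Without brown fat replicate 1 in the cold the effects were 0.30 for Pgam2 and 0.28 for Eno3 (adjusted p = 0.34 and 0.406), and without replicate 2 they were -5.54 and -4.77 and were called (adjusted p = 3.1e-05 and 7.79e-05). Over the alternatives the adjusted p ran from 2.31e-05 to 0.549 for Pgam2 and from 5.39e-05 to 0.566 for Eno3. Against muscle, brown fat was lower by -5.83 for Pgam2 (adjusted p = 0.0135) and -5.66 for Eno3 (adjusted p = 0.00814) in the cold, and by -3.19 and -3.40 at room temperature (adjusted p = 0.11 and 0.0589). These room temperature differences were called in 5 of 21 alternatives for Pgam2 and in 10 of 22 for Eno3, among them the omission of either brown fat array in the cold (adjusted p = 1.22e-05 for both genes without replicate 1), which are not part of the difference but enter the shared spread. Without brown fat replicate 1 in the cold, the differences in the cold were -2.90 for Pgam2 and -3.13 for Eno3, and without replicate 2 they were -8.75 and -8.19. The call for Pgam2 in the cold was lost when only the groups compared were fitted. The tissues did not overlap at either temperature. How much of either transcript in brown fat samples came from muscle fibres was not tested.

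Eno2, the enolase of neurons, was near background, at 6.02 and 5.97 in brown fat in the cold, 5.98 and 5.53 in brown fat at room temperature, 5.58 and 5.54 in muscle in the cold, and 6.22 and 6.02 in muscle at room temperature. It was not above background on either muscle array in the cold. In muscle the cold arrays lay below those at room temperature, at least 1.40-fold in the mean, which did not pass (adjusted p = 0.109). Brown fat was higher than muscle in the cold by at least 1.28-fold (adjusted p = 0.0482), a call that was lost in 13 of 21 alternatives (adjusted p from 0.0166 to 0.218). Aldoc, the aldolase of brain, had 2 probes, neither bright enough to be tested.

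**Figure D4:**
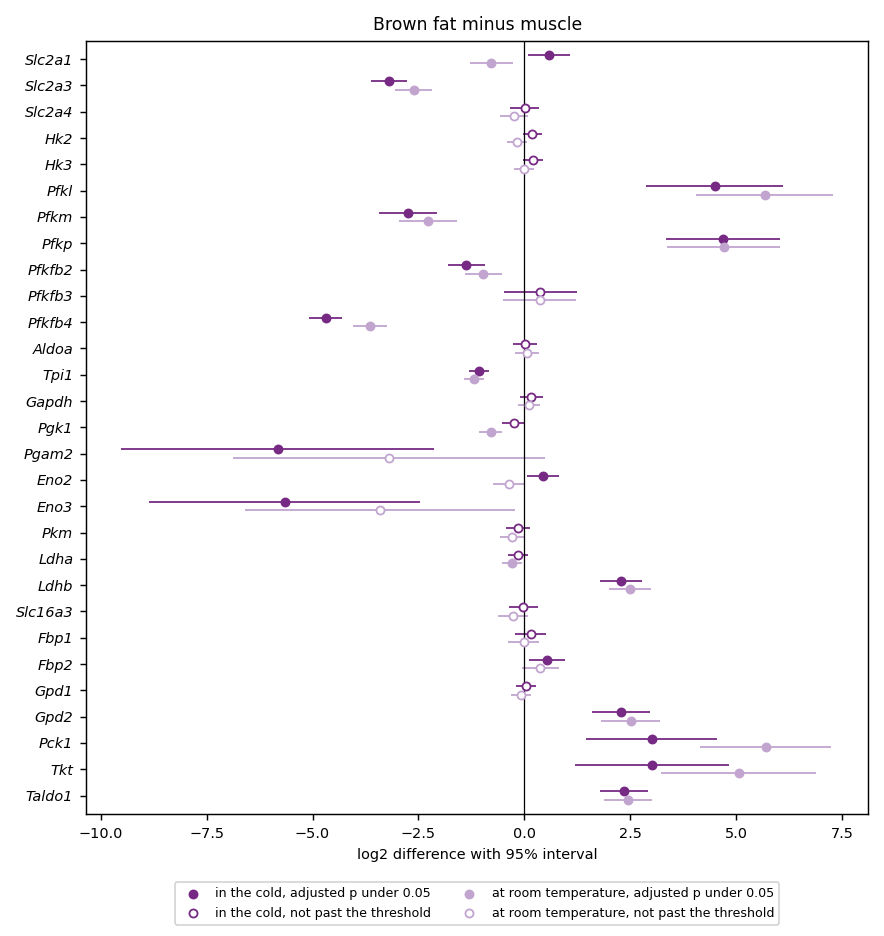
Log2 difference of each tested member between brown fat and muscle, in the cold (dark) and at room temperature (light), with 95% intervals from the limma fit; filled points passed an adjusted p of 0.05. Pfkl, Pfkp, Ldhb, Gpd2, Pck1, Tkt and Taldo1 lie to the right at both temperatures, and Slc2a3, Pfkm, Pfkfb2, Pfkfb4 and Tpi1 to the left; Slc2a1 lies to the right in the cold and to the left at room temperature. The points of Pck1 at room temperature and of Eno2 in the cold are fitted values with muscle not above background, for which the text gives bounds.

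Of the lactate dehydrogenase subunits, the heart-type form was higher in brown fat than in muscle at both temperatures. Ldhb, the heart-type subunit, read 13.67 and 13.75 in brown fat in the cold, 13.65 and 13.63 in brown fat at room temperature, 11.75 and 11.11 in muscle in the cold, and 10.99 and 11.30 in muscle at room temperature. It was higher in brown fat by 2.28 in the cold (SE 0.21, adjusted p = 9.58e-05) and 2.49 at room temperature (adjusted p = 6.05e-05). Its signal on the muscle arrays was 28% and 20.3% of the brown fat mean at room temperature in the cold, against 14% and 20.1% at room temperature. It was thus not highest on replicate 2 in the cold, the muscle array with the most brown fat marker signal. Ldha, the muscle-type subunit, read 14.57 and 14.59, 14.57 and 14.49, 14.81 and 14.65, and 14.83 and 14.81 in the same groups. It was lower in brown fat by -0.29 at room temperature (SE 0.10, adjusted p = 0.0361), a call lost in 6 of 22 alternatives (adjusted p from 0.0183 to 0.136), and by -0.15 in the cold (adjusted p = 0.227). Neither subunit passed for cold, with effects of 0.07 for Ldhb and 0.05 for Ldha in brown fat. Slc16a3, a lactate exporter (MCT4), lay between 5.94 and 6.48 and passed no comparison, and Slc16a1, the more widespread lactate carrier, was not above background on any array.

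Set as the log2 difference between the probes of a pair on the same array, 4 of the 6 pairs with both probes tested did not overlap between the tissues. These were Pfkl and Pfkp each set against Pfkm, Ldhb against Ldha, and Gpd1 against Gpd2. The share of other gene pairs that separate the tissues was not taken. Of single genes, 82.7% in the cold and 85.2% at room temperature did not overlap. Ldha and Gpd1 were above 60% of the array's maximum on every array. At room temperature, brown fat minus muscle was 2.79 for Ldhb minus Ldha, against 2.49 for Ldhb alone. For Gpd1 minus Gpd2 it was -2.60, against 2.51 for Gpd2 alone. Gpd1 and Gpd2 are separate enzymes of a shuttle and not isoforms. Slc2a1 against Slc2a4 and Fbp2 against Fbp1 overlapped. Levels of different probes are not comparable, so only the shift between arrays is read. Pfkl minus Pfkm was 2.79 and 2.11 in brown fat in the cold, 1.86 and 1.76 in brown fat at room temperature, -6.03 and -3.57 in muscle in the cold, and -6.04 and -6.21 in muscle at room temperature. Pfkp minus Pfkm was 0.49 and -0.52, -1.70 and -1.32, -8.47 and -6.47, and -8.54 and -8.42 in the same groups. In brown fat both differences were higher in the cold on each array than at room temperature, but the value of replicate 1 in the cold moved with its low Pfkm. Ldhb minus Ldha averaged -0.87 ± 0.05 in brown fat in the cold, -0.89 ± 0.04 in brown fat at room temperature, -3.30 ± 0.34 in muscle in the cold and -3.67 ± 0.23 in muscle at room temperature (SD, n = 2 each). The other 6 pairs named for this comparison lacked a tested probe on at least 1 side.

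**Figure D5:**
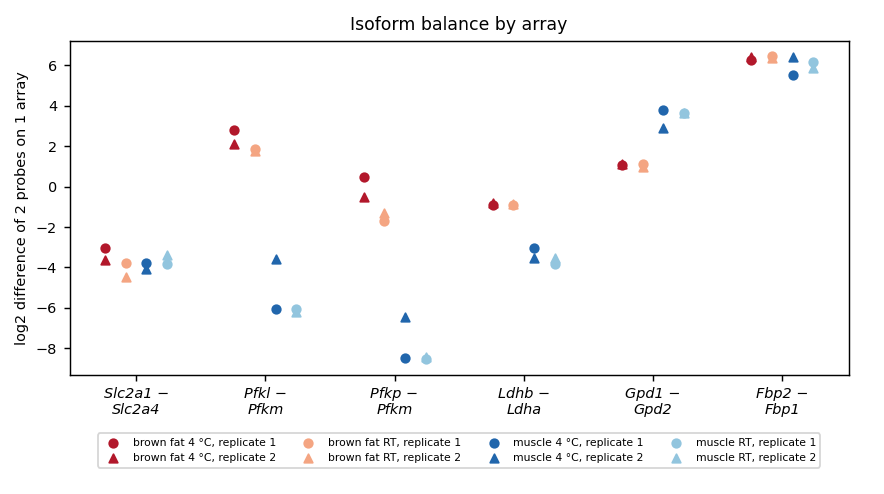
Log2 difference between 2 member probes on each array, for the 6 pairs with both probes tested. Gpd1 and Gpd2 are separate enzymes and not isoforms. Colours mark tissue and temperature, and circles and triangles mark replicates 1 and 2. Pfkl minus Pfkm, Pfkp minus Pfkm, Ldhb minus Ldha and Gpd1 minus Gpd2 separate the tissues, while Slc2a1 minus Slc2a4 and Fbp2 minus Fbp1 overlap; the height of a pair depends on its probes, so only shifts between arrays within a pair carry meaning.

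Gpd1 and Gpd2 form the glycerol phosphate shuttle, in which a cytosolic and a mitochondrial dehydrogenase pass reducing equivalents to the respiratory chain. Gpd2, the mitochondrial enzyme, read 13.55 and 13.51 in brown fat in the cold, 13.42 and 13.66 in brown fat at room temperature, 10.73 and 11.76 in muscle in the cold, and 11.03 and 11.04 in muscle at room temperature. It was higher in brown fat than in muscle by 2.29 in the cold (SE 0.29, adjusted p = 0.000433) and 2.51 at room temperature (adjusted p = 0.000252), and its further probe gave 3.31 and 3.27. On the muscle arrays it stood at 14.6% and 34.3% of its brown fat mean at room temperature in the cold, against 15.4% and 17.5% at room temperature, and its muscle cold effect was called without replicate 1 in the cold (0.73, adjusted p = 0.0337). Gpd1, the cytosolic enzyme, lay between 14.52 and 14.68 on all arrays, near the top of the range, and passed no comparison.

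Of the gluconeogenic enzymes, Pck1 (cytosolic phosphoenolpyruvate carboxykinase), which in fat feeds glycerol synthesis, differed between the tissues. It read 10.91 and 10.51 in brown fat in the cold, 11.30 and 11.11 in brown fat at room temperature, 6.50 and 8.90 in muscle in the cold, and 5.57 and 5.43 in muscle at room temperature, where it was not above background on either array. Brown fat was higher than muscle by 3.01 in the cold (SE 0.66, adjusted p = 0.00533) and at least 44.8-fold at room temperature (adjusted p = 0.000232). This bound takes the brown fat mean over, per muscle array, the higher of the lowest detected signal and the probe's own. In muscle the cold arrays lay above those at room temperature, at least 3.96-fold in the mean, which did not pass (adjusted p = 0.119). On muscle replicate 2 in the cold Pck1 stood at 23.6% of its brown fat mean at room temperature, against 3.39% on replicate 1, and the muscle effect was called without replicate 1 (adjusted p = 0.000266) and not without replicate 2 (adjusted p = 0.0704). Over 21 alternatives its adjusted p ran from 0.000266 to 0.408. The tissue difference in the cold was 4.21 without muscle replicate 2 and 1.81 without muscle replicate 1. Fbp2, the muscle form of fructose bisphosphatase, read 12.44 and 12.59 in brown fat in the cold, 12.53 and 12.26 in brown fat at room temperature, 11.73 and 12.23 in muscle in the cold, and 12.09 and 11.94 in muscle at room temperature. It was higher in brown fat than in muscle in the cold by 0.53 (SE 0.18, adjusted p = 0.0368), a call lost in 9 of 22 alternatives (adjusted p from 0.00631 to 0.187). Fbp1, the liver form, lay between 5.84 and 6.25 and passed no comparison.

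Tkt and Taldo1, the tested members from the non-oxidative pentose phosphate pathway, were higher in brown fat than in muscle. Rpe and Rpia, enzymes of the same branch outside the set, had lower levels in cold brown fat than in cold muscle, by -1.20 (adjusted p = 0.00033) and -0.70 (adjusted p = 0.00682). Tkt (transketolase) read 14.72 and 14.48 in brown fat in the cold, 14.67 and 14.64 in brown fat at room temperature, 10.16 and 13.02 in muscle in the cold, and 9.47 and 9.72 in muscle at room temperature. Taldo1 (transaldolase) read 14.36 and 14.48, 14.31 and 14.40, 11.66 and 12.48, and 11.88 and 11.91 in the same groups. The tissues did not overlap for either. Tkt was higher in brown fat by 3.01 in the cold (SE 0.77, adjusted p = 0.0112) and 5.06 at room temperature (adjusted p = 0.000911), and Taldo1 by 2.35 (SE 0.24, adjusted p = 0.000145) and 2.46 (adjusted p = 0.000108). The difference of Tkt in the cold was 4.44 without muscle replicate 2 and 1.58 without muscle replicate 1, and its call was lost when only the groups compared were fitted. On the muscle arrays Taldo1 stood at 17% and 31.6% of its brown fat mean at room temperature in the cold, against 16.6% and 19.3% at room temperature, and its muscle cold effect was called without replicate 1 in the cold (0.58, adjusted p = 0.0469). Cold effects in brown fat were -0.06 for Tkt and 0.07 for Taldo1, and neither passed. In muscle Tkt was higher in the cold on both arrays, by 2.00 in the mean (SE 0.77, adjusted p = 0.208). Replicate 2, with the most brown fat marker signal of the muscle arrays, stood at 35.9% of the brown fat mean at room temperature. Replicate 1 stood at 4.64%, against 2.42% and 3.25% in muscle at room temperature. Without replicate 2 the muscle effect of Tkt was 0.57 (adjusted p = 0.172), and without replicate 1 it was 3.43 and was called (adjusted p = 0.000193). Over the alternatives its adjusted p ran from 0.000193 to 0.502.

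A further list of 48 genes of sugar metabolism outside the set gave 41 with a named probe and 20 tested. In cold brown fat 2 of the 20 rose and 1 fell (10% and 5%, against 8.38% and 8.24% of all genes). Rpe, the pentose phosphate epimerase, rose by 0.94 (SE 0.15, adjusted p = 0.00807), at 8.87 and 8.44 in brown fat in the cold against 7.74 and 7.70 in brown fat at room temperature. Mpc1, a subunit of the mitochondrial pyruvate carrier, rose by 0.53 (SE 0.14, adjusted p = 0.0441), and Rpia, the pentose phosphate isomerase, fell by 0.60 (SE 0.16, adjusted p = 0.0457). Mpc1 lost its call in 12 and Rpia in 15 of 22 alternatives. In muscle 0 of the 20 passed, against 4.21% of all genes. There 3 had an unadjusted p under 0.05, a limit for which no share of all genes was taken. Rpe in muscle read 9.90 and 9.81 in the cold against 10.14 and 10.10 at room temperature, and its cold effects differed between the tissues by 1.21 (SE 0.21, adjusted p = 0.0325).

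Between the tissues, 8 of the 20 had higher and 7 lower levels in cold brown fat than in cold muscle. These were 40% and 35%, against 34.1% and 29.9% of all genes. At room temperature 8 were higher and 6 lower (40% and 30%, against 32.8% and 33.4% of all genes). Pgls, the lactonase of the oxidative pentose phosphate pathway, was higher in brown fat by 1.86 in the cold and 1.93 at room temperature (SE 0.13). Pcx (pyruvate carboxylase) was higher by 1.60 and 2.41 (SE 0.20) at those temperatures. Ldhd, which oxidises the other lactate isomer, was higher by 1.30 at room temperature, and Rbks (ribokinase) by 1.28 in the cold. Tigar, a phosphatase that lowers the activator of phosphofructokinase, was lower in brown fat by -3.26 at room temperature and at least 8.10-fold in the cold. Prps1, which makes the sugar donor for nucleotides, was lower by -1.74 in the cold and -1.43 at room temperature, and Rpe by -1.20 and -2.40. All of these differences had an adjusted p of at most 0.000394 in limma.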

How the data were processed

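Expression was measured on 8 single-colour Illumina bead arrays of total RNA from brown fat and quadriceps muscle. The deposited table of raw values gives, per the file headers, an intensity on a linear scale for each of 24607 probes and a detection score, a fraction read here as 1 minus a detection p-value because it reaches its maximum for the brightest probes. The deposited series table holds the authors' processed intensity values and served as an alternative. The software and normalization behind it are not stated in the sources at hand.

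Here the raw signals were background corrected with the normexp model in limma 3.58.1 (R 4.3.3), with negative controls inferred from detection p-values and an offset of 16, quantile normalized and put on the log2 scale. Probes were kept (11946) where both arrays of some group had a detection p under 0.05, and the brightest probe stood for each gene (9963 genes, 8561 named). Gene names came from the platform annotation, in which 20980 probes carry 1 symbol, 1 carries several and 3626 carry none, and 20964 were matched by gene identifier to RefSeq. A model of the 4 group means was fitted with lmFit, followed by eBayes, with 4 residual degrees of freedom plus 3.07 from moderation. P-values were adjusted over all genes with the Benjamini-Hochberg method, and an adjusted p under 0.05 is called. Errors are SE unless marked SD, and intervals are at the 95% level. The number of arrays limits the precision. Between 10468 and 11280 probes per array were above background.

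A fold against a group with no array above background is given as a bound. Promoters came from RefSeq (GRCm38.p6), whose coordinates are those of the promoter table and not of the array. The members and gene lists, the motifs and the arrays left out together were chosen with earlier results of these data known. All members are named or counted, and other sugar metabolism genes are named where past the threshold, at most 3 per direction and comparison by size. The fit was tested on simulated data.

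The deviations of same-numbered arrays from their group means correlated at -0.125 to 0.181 between groups. These values cannot show whether such samples are paired, since single arrays with signal of the other tissue can weigh on them. Same-numbered arrays share only a number, so the main fit used no block, and fits with a block are given as alternatives.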

Additional observations from a re-analysis of the deposited data

Results flagged for a closer look

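The cold effect on Rpe, an enzyme of the pentose phosphate pathway outside the member set, differed between the tissues by the test of the difference itself. Its log2 fold change was 0.94 in brown fat and -0.27 in muscle, a difference of 1.21 (SE 0.21, interval 0.72 to 1.69, adjusted p = 0.0325 in limma). In the normalized values, both brown fat arrays in the cold lay above both at room temperature. Both muscle arrays in the cold lay below both at room temperature. Raw signals in muscle overlapped, at 1043 and 1131 in the cold against 1072.6 and 1157 at room temperature. In brown fat they did not, at 422.7 and 425.6 in the cold against 330.9 and 276.9 at room temperature. The difference was called in 14 of 21 alternatives.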

How the results depend on the processing

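The counts of members past the threshold depended most on which arrays were used. Leaving out 1 array at a time gave 0 to 6 called members for the brown fat cold effect (0 without brown fat replicate 2 at room temperature, with 6.02% of all genes called, and 1 without brown fat replicate 1 in the cold, with 7.81%, against 16.6% with all arrays), 0 to 6 for the muscle cold effect (6 without muscle replicate 1 in the cold, with 6.99% of all genes called, against 4.21%) and 0 to 4 for the difference of cold effects (4 without muscle replicate 1 or brown fat replicate 2 in the cold, with 8.2% and 4.02% of all genes, against 4.22%). Leaving out brown fat replicate 1 and muscle replicate 2 in the cold together moved the counts for members and for all genes. Without replicate 2 of both tissues in the cold they were 7, 2 and 5. These last counts are of called members, for the brown fat cold effect, the muscle cold effect and their difference. In that fit calls over all genes also rose for the brown fat cold effect and the difference, but fell for muscle. With 1 array left in each cold group, the counts cannot show a response of the members. The difference of cold effects had 2 called members with detection p under 0.01 on all arrays (fewer genes tested, 6.9% of them called). With array weights it had 1 (4.47% of all genes called). The causes were otherwise not tested. No called value changed direction in any alternative. With the replicate number as a block, 3, 0, 0, 16 and 16 members were called for the brown fat cold effect, the muscle cold effect, their difference, and the tissue difference at room temperature and in the cold, against 4, 0, 0, 15 and 17 without the block. Of all genes, 13.9%, 2.42%, 1.87%, 64.5% and 62.4% were called with the block, against 16.6%, 4.21%, 4.22%, 66.2% and 64% without it. The same-numbered arrays share only a number. With the description field's numbers the block gave 4, 0, 0, 15 and 16 members, and 15.6%, 3.41%, 2.7%, 65.7% and 63.2% of all genes. Of the members called between tissues, 12 of 17 in the cold and 13 of 15 at room temperature were called in every alternative run, against 0 of 4 for the brown fat cold effect. The share of all genes called in every alternative was not taken, so these counts cannot be set against it. Median scaling put the median log2 fold change of all genes in cold brown fat at 0.17, against 0.015 with quantile normalization. It split the calls over all genes into 561 higher and 304 lower, against 835 and 821. Relative to that shift the direction of Slc2a1, Hk2, Pgk1 and Pfkfb4 was kept. With 2 arrays per group the spread is poorly known, and signals near background or near the top of the range bound what can be seen.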
